A study of Drosophila melanogaster with 65 samples.

Results

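Of the 1987 Traffic jam (TJ) peaks in OSS cells, 280 (14.1%) lay between genes. A peak was counted as between genes when its whole 500 bp interval was over 1 kb from every gene start and overlapped no gene span listed in the gene tables of the series. The other 834 peaks (42.0%) were at gene starts and 873 (43.9%) lay within gene bodies. The member nearest to the limit, chrX:2124311-2124810 near ph-d, had its edge 1025 bp from a gene start. The closest peak left out, chr3R:4747412-4747911 near tacc, was 998 bp from one. The rule used positions alone and no level of RNA. It keeps members away from gene starts, where H3K4me3 is usual, so the share of members near that mark is partly set by the rule.

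TJ is a large Maf factor, a transcription factor of the basic leucine zipper class. In Drosophila it is known for its role in the somatic cells of the gonad, where it is needed for gonad development and for expression of the piRNA factor piwi. Factors of this kind bind both at promoters and at distant enhancers, and distant sites often cannot be assigned to the gene they act on by position alone.

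OSS is an established Drosophila line of ovarian somatic sheath cells. TJ was mapped by chromatin immunoprecipitation (ChIP) with an antibody labelled Tj39 from fixed OSS cells in 3 libraries, which the authors turned into 1 list of peaks. Long RNA was sequenced from OSS cells after siRNA against GFP (siGFP, the control), TJ (siTj), Piwi (siPiwi) or Cubitus interruptus (siCi), with 3 libraries per group. H3K4me3, a mark of active gene starts, and H3K9me3, a mark of silenced chromatin, were mapped by Cut&Run in cells labelled Plain, with no siRNA named (2 libraries per mark), in siGFP cells (1 per mark) and in siTj cells (1 per mark). Wild-type ovaries of the lines labelled FITS, FlamBG, FlamKG, FPSE1, FPSE2A and FPSE2B gave 1 long RNA library each, and these 6 serve only as a reference for levels in the tissue. The labels give no genotype of the line, no time after siRNA and no word on whether replicates were separate cultures. The p-values therefore reflect only how these libraries vary, which may be technical. In RNA from a whole culture, fewer cells of a kind and less RNA per cell cannot be told apart.

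The OSS long RNA libraries held 9075806 to 54359738 unique sense reads in genes. The targeted gene tj stood at 2031, 1105 and 1212 reads per 1e6 (CPM) in siGFP libraries 1, 2 and 3 and at 569, 218 and 594 in siTj libraries 1, 2 and 3, so the groups did not overlap. Its log2 fold change was -1.72 (SE 0.32) with the replicate number as a block (edgeR, adjusted p = 0.0198) and -1.65 without it (edgeR, adjusted p = 0.533). The 7 markers of ovarian somatic cells, with the targeted tj among them, summed to 4468 to 5934 CPM in siGFP and to 1875 to 3136 in siTj. Of these, 4 (tj, fs(1)Yb, piwi and flam) passed the paired test as lower. zfh1, Fas3 and Wnt4 did not pass, and their groups overlapped. They stood at 151 to 614, 119 to 182 and 698 to 1878 CPM in siGFP. In siTj they were at 245 to 797, 132 to 211 and 712 to 1296. The 6 germline markers summed to 7.80 to 15.9 CPM in siGFP and 6.83 to 62.3 in siTj, and none passed. Markers of hemocytes and fat body summed to 11.3 to 49.2 CPM in siGFP and to 175 to 330 in siTj, and markers of muscle to 9.90 to 38.0 and 116 to 198. Of these, Cg25C and Act57B passed the paired test as higher. Cg25C alone made up most of the hemocyte and fat body sums. It stood at 10.5 to 42.9 CPM in siGFP and at 147 to 320 in siTj. The groups overlapped for Hml, at 0.73 to 6.20 and 1.67 to 33.1 CPM, and Lsp2 reached at most 1.61. These sums therefore do not show a rise of the hemocyte and fat body list as a whole. Of the muscle markers, Mhc overlapped between groups and wupA did not. The part of these 4 marker lists in the results below was not tested. The libraries siPiwi 2 and siTj 2 stood apart with 12.4% and 9.27% of reads antisense, against 4.07% to 5.08% in the other 10.

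TJ peaks between genes were thinly spread. The bases where a peak could count as between genes added up to 35.0 Mb, which held 8.0 peaks per Mb. The territory around gene starts held 27.1 peaks per Mb and that of gene bodies 12.5. Every base from the first to the last listed gene of a chromosome was counted, Y included. No account was taken of repeats where reads cannot be placed, and their part in these densities was not tested. Peak density between genes was 9.71 per Mb on 3L, 9.42 on 2L, 9.36 on 3R, 7.07 on 2R and 6.86 on X. Chromosome Y held 1 peak in 2.5 Mb, or 0.401 per Mb, and chromosome 4 none, in 0.147 Mb. By RefSeq the peak on Y overlapped the pseudogene Mst77Y-16Psi and several genes named Su(Ste). Whether its reads came from Y, in a line from ovaries, was not tested, so this member is uncertain.

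The median distance from a peak between genes to the nearest gene start was 4834 bp, measured from the peak centre. The quartiles were 2286 and 9342 bp. In all, 55 peaks were within 2 kb of a start, 90 at 2 to 5 kb, 78 at 5 to 10 kb, 42 at 10 to 20 kb and 15 farther away. The gaps between genes that held them were 752 to 93117 bp long, with a median of 17081 bp. The peak lay upstream of its nearest gene in 161 cases (57.5%) and downstream in 119 (42.5%). By the orientation of the flanking genes, 67 peaks (23.9%) were in divergent gaps, 59 (21.1%) in convergent gaps and 153 (54.6%) in tandem gaps. Of all bases between genes, 20.8%, 27.2% and 52.0% were in gaps of these kinds.

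**Figure D1:**
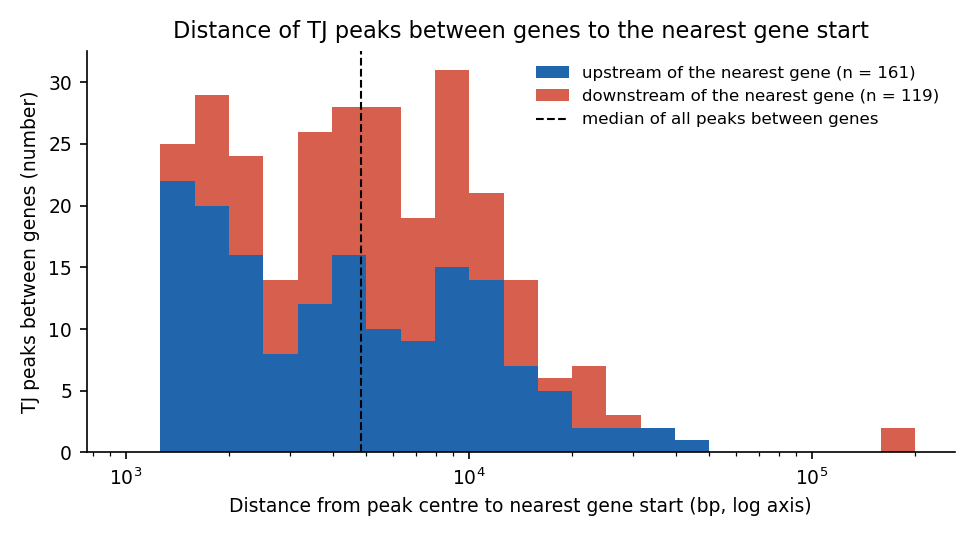
Distance in bp from the centre of each TJ peak between genes to the nearest gene start (log axis), as numbers of peaks, stacked by the side of the nearest gene on which the peak lay. Most peaks were between 1275 bp and 20 kb from a start, with a median of 4834 bp, and a pair stood apart near 160 kb.

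The 2 peaks farthest from any gene start were neighbours on 2R, at chr2R:1809112-1809611 and chr2R:1809932-1810431. Their centres were 159746 and 160566 bp from the start of CG41520. The bounds of this gene differed between tables, and its other listed start was 160301 and 161121 bp away. The near end of the gene was 30424 and 31244 bp from the peaks, in a gap of 87142 bp. The next were at chr3L:18345192-18345691, 41025 bp from the start of grim and in a gap of 93117 bp between grim and rpr, both activators of cell death, and at chr3L:14481299-14481798, 32976 bp from the start of bbg, which encodes a PDZ domain protein.

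Not all of these peaks lay outside genes by every annotation. RefSeq (Release 6) gives longer spans for some genes than the tables do. It also holds genes whose names the tables lack, such as some tRNAs and pseudogenes. In all, 49 of the 280 peaks (17.5%) overlapped a RefSeq gene. For 41 of them that gene was protein-coding. They included 4 peaks in apt, 4 in bbg, 3 in Pdp1, 2 in shot, 2 in fz2 and 1 in cnc. The remaining 231 peaks were between genes by both annotations.

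The 280 peaks had 248 different nearest genes, taken as the gene whose start was closest to the peak centre. Of these, 221 neighboured 1 peak, 22 neighboured 2 and 5 neighboured 3. Most had no other TJ peak of their own: 20 had a TJ peak within 1 kb of their start, 15 had one in their span and 214 had neither. Genes with no coding length in the tables were frequent, at 81 of 248 (32.7%) against 15.1% of all 16369 genes. The start or end of 7 nearest genes differed between tables, and these are uncertain where named.

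The nearest genes were mostly silent or weakly expressed in OSS cells. Their median level in siGFP was 0.163 CPM, against 1.38 for all genes, 49.3 for genes with a TJ peak at their start and 134 for genes with one in their body. In the 3 siGFP libraries 51 nearest genes (20.6%) had no read, against 12.02% of all genes. At the upper end, 86 (34.7%) reached a mean of 1 CPM, 63 (25.4%) reached 10 CPM and 26 (10.5%) reached 100 CPM, while 51.9%, 39.3% and 14.2% of all genes did. Only 120 of the 248 (48.4%) had enough reads to be tested, compared with 65.5% of all genes. Of the 128 that were not tested, 6 had a median of at least 1 CPM over the 6 wild-type ovary libraries.

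A minority of TJ peaks between genes came in groups. A second TJ peak of any class lay within 10 kb of 107 of them (38.2%), compared with 36.9% of peaks at gene starts and 49.0% of peaks in gene bodies. The median gap to the next peak was 15659 bp, against 16477 bp and 10225 bp. At short range, 8 of the 280 (2.86%) had another TJ peak within 1 kb, while 2 of 834 at gene starts and 4 of 873 in gene bodies did. When neighbouring peaks up to 10 kb apart were joined into clusters, 173 of the 280 were alone, 67 were in pairs, 26 in clusters of 3, 7 in clusters of 4, 6 in clusters of 5 and 1 in a cluster of 6. None of these differences was tested.

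The only cluster of 5 peaks with all of them between genes was on 3R, from chr3R:29279091 to 29299522. Its first 2 peaks, 996 bp apart, lay 2233 and 3229 bp upstream of CR45568. The other 3 surrounded CG14506, with centres 9621 and 4976 bp downstream and 2093 bp upstream of its start. Both genes had almost no reads. CG14506 had 0, 0.276 and 0.0252 CPM in siGFP libraries 1 to 3, and 0, 2.20 and 0 in siTj. CR45568 had no read in siGFP and 0.114, 0 and 0 CPM in siTj.

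The largest cluster that included a peak between genes held 6 peaks over 3L and ended at bin, which encodes a FoxF transcription factor. Its 1 peak between genes (chr3L:6988242-6988741) was 2130 bp upstream of bin, between 4 peaks at the starts of Galphai, CR46000 and CG32388 and 1 in the body of bin. A cluster of 5 peaks on 2L belonged to chinmo, which encodes a BTB zinc finger factor. There the peak between genes (chr2L:1649340-1649839) was 1668 bp upstream, with 1 further peak at the start and 3 in the body.

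A further 6 clusters had 3 peaks between genes. Those at CR45303, a noncoding gene, were at chr2L:14494571-14495070, chr2L:14499265-14499764 and chr2L:14502930-14503429. The 3 near apt, a gene for a transcription factor of tracheal and border cells, were 10126, 13877 and 15989 bp upstream of the start given in the tables and inside apt by RefSeq. Another 3 lay 4713, 5557 and 6658 bp upstream of CG32365, and RefSeq places them inside Pdp1, a gene for a leucine zipper factor of the circadian clock that also has a TJ peak at its listed start. The remaining clusters were near 18w (a receptor of the Toll family) and CR44634, near CG17154 and l(3)j2D3, and near Gr93a and Gr93b (gustatory receptors).

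**Figure D2:**
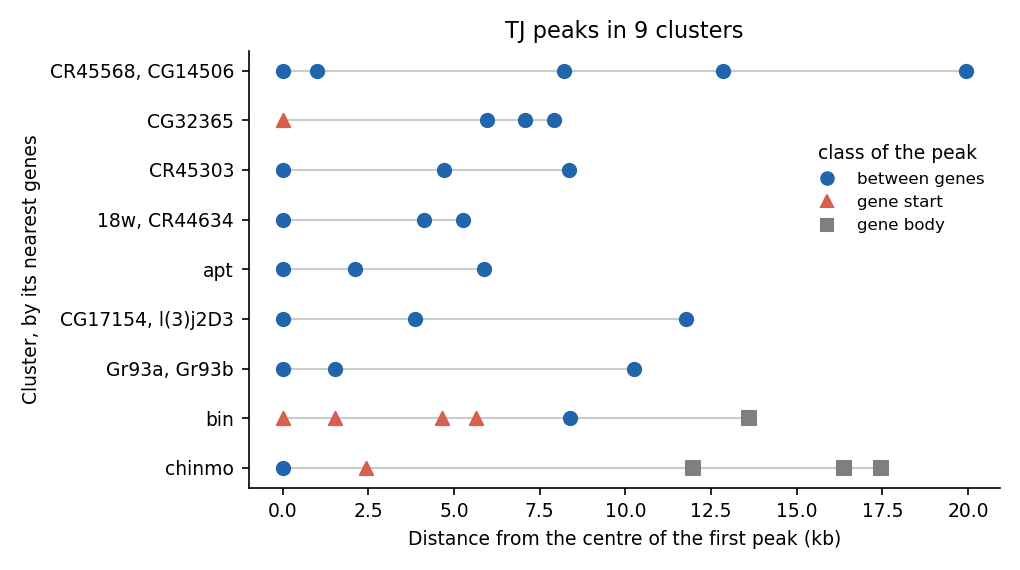
Position of each TJ peak in 9 clusters, in kb from the centre of the first peak, with the symbol showing whether the peak was between genes, at a gene start or in a gene body. The rows for bin and chinmo hold 1 peak between genes each among 6 and 5 peaks, and the other rows hold 3 or more.

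The knockdown of TJ was then read at the nearest genes. In the fit without the replicate number, edgeR called 0 of the 120 tested nearest genes for siTj against siGFP, against 0.0466% of all 10724 genes tested. An unadjusted p under 0.05 was found for 10 (8.33%), against 7.35% of all genes tested. DESeq2 called 3 of the 120, and 210 of all 10724. The same replicate numbers deviated together in all groups, so a second fit had the number as a block and is called the paired fit. There edgeR called 10 of the 120 (8.33%), 5 higher and 5 lower, against 3.52% of all genes tested (2.06% higher and 1.45% lower). Of genes with a TJ peak at their start 7.43% were called (28 higher and 54 lower), of genes with one in their body 10.5% (39 higher and 25 lower), and of genes with none of these 2.63%. Among the 93 tested nearest genes with no other TJ peak at their start or in their span, 4 (4.30%) were called, 3 higher and 1 lower. That share was near the one of all genes tested, and the remaining calls were at genes with another TJ peak. The 10 calls rested on few libraries, since leaving out siGFP 1 or siTj 1 left 0. The count was 4 when siGFP 2 was dropped, 3 when siGFP 3 or siTj 3 was, and 11 when siTj 2 was. Whether the nearest genes differed from other genes was not tested.

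Peak distances differed between the lower and the higher calls, which are few. The 5 lower genes had their peak 1549 to 2130 bp upstream, and the 5 higher ones had it 4632 to 14242 bp away. Of the lower genes pyr, CG7120, CG8170 and bin also had another TJ peak at their start or in their body. Of the higher ones Tollo and shot did. In so few genes, distance and other TJ peaks cannot be told apart. Of the 30 tested genes with a peak within 2 kb, 4 were called and all 4 were lower. Of the 35 at 2 to 5 kb, 1 was higher and 1 lower. Of the 36 at 5 to 10 kb 2 were higher, and of the 19 beyond 10 kb 2 were higher. Over all tested nearest genes there was no such order: the median paired log2 fold change was 0.15 within 2 kb (56.7% positive), 0.07 at 2 to 5 kb (57.1%), 0.25 at 5 to 10 kb (63.9%) and 0.07 beyond 10 kb (52.6%). The peak was upstream of 8 of the 10. Neither distance nor side was tested.

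**Figure D3:**
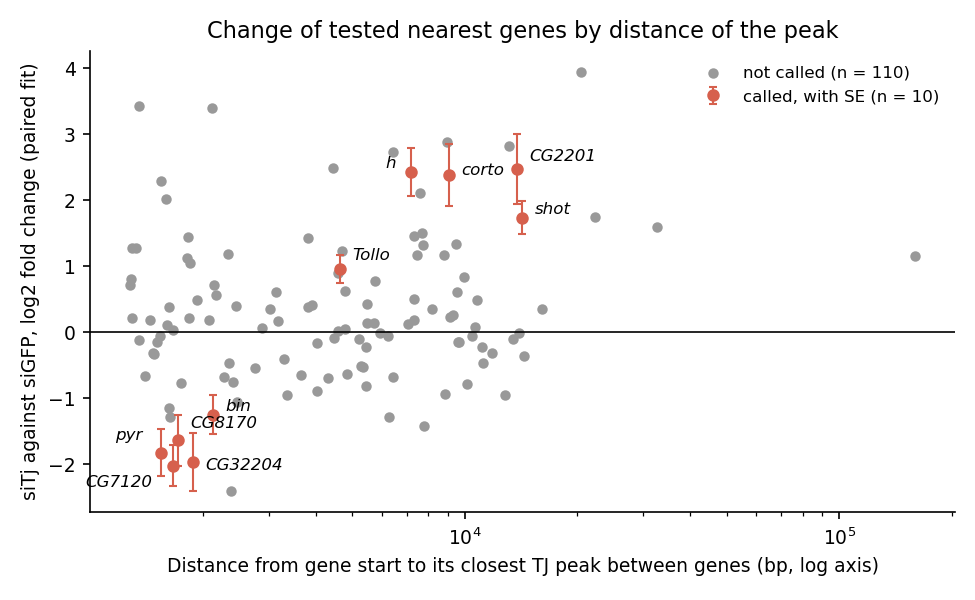
Log2 fold change of siTj against siGFP in the paired fit for the 120 tested nearest genes, against the distance in bp from the gene start to its closest TJ peak between genes (log axis). The 10 called genes are named with bars of 1 SE, 5 lower at 1549 to 2130 bp and 5 higher at 4632 bp or more. Over all tested nearest genes the median is 0.15 within 2 kb and 0.07 beyond 10 kb.

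Among the lower genes, pyr encodes an FGF ligand of the receptor Heartless. Its peak (chr2R:11710464-11710963) lay 1549 bp upstream, with a second TJ peak at its start. It stood at 47.5, 40.2 and 35.6 CPM in siGFP libraries 1, 2 and 3 and at 7.87, 22.3 and 7.60 in siTj. All siTj libraries were below all siGFP libraries, and library 2 was the least reduced. In the paired fit the log2 fold change was -1.82 (SE 0.35; edgeR, adjusted p = 0.0222), and in the fit without pairing -1.70 (edgeR, adjusted p = 0.290).

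CG7120 had the largest fall of the 10 in the paired fit. Its peak (chr3L:8396170-8396669) was 1666 bp upstream of the start in the tables and inside the longer RefSeq span of the gene, and another TJ peak was near its start. Its levels were 84.3, 65.7 and 79.2 CPM in siGFP and 17.9, 14.5 and 25.7 in siTj. The groups were far apart. The log2 fold change was -2.02 (SE 0.31; edgeR paired, adjusted p = 0.00938; without pairing 0.212).

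bin had 54.9, 80.7 and 101 CPM in siGFP and 19.4, 43.5 and 36.7 in siTj, with no overlap (log2 fold change -1.25, SE 0.29; edgeR paired, adjusted p = 0.0401). CG32204, the 1 lower gene with no other TJ peak at its start or in its body, had its peak (chr3L:18947671-18948170) 1883 bp upstream. It stood at 125, 39.3 and 25.1 CPM in siGFP and at 9.58, 18.6 and 9.27 in siTj, so the groups did not overlap although siGFP 1 was far above the others. Its log2 fold change was -1.97 (SE 0.44; edgeR paired, adjusted p = 0.0354).

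CG8170, with a peak at chr2R:9032513-9033012 and another at its start, had 26.4, 44.3 and 37.5 CPM in siGFP and 6.90, 30.3 and 6.90 in siTj. Here the groups overlapped, because siTj 2 was above siGFP 1. The gene was also high in siPiwi 2, at 88.0 CPM against 21.4 and 22.3 in the other siPiwi libraries. Its log2 fold change was -1.64 (SE 0.38; edgeR paired, adjusted p = 0.0408).

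Among the higher genes, shot encodes a spectraplakin linking actin and microtubules. It stood at 842, 982 and 320 CPM in siGFP libraries 1, 2 and 3 and at 2533, 2646 and 1395 in siTj. Every siTj library was above every siGFP library, and library 3 was low in both groups. The log2 fold change was 1.73 (SE 0.25; edgeR paired, adjusted p = 0.00937). Its peak (chr2R:13924938-13925437) was 14242 bp upstream of the start in the tables and inside shot by RefSeq, and shot had a further TJ peak in its body.

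The gene h (hairy) encodes a transcriptional repressor with a basic helix-loop-helix domain, known from segmentation. Its peak (chr3L:8682680-8683179) was 7171 bp downstream of its start, past the end of the gene. Other TJ peaks between genes also flanked h. The peak at chr3L:8684556-8685055, nearest to CR44526, was 1876 bp from that of h. Those at chr3L:8659444-8659943 and chr3L:8662030-8662529, nearest to Arr2, were 16065 and 13479 bp from the other end of h. h had 8.04, 24.9 and 18.6 CPM in siGFP and 62.0, 97.8 and 87.7 in siTj, with no overlap (log2 fold change 2.43, SE 0.36; edgeR paired, adjusted p = 0.00937). In siPiwi it was at 14.5, 84.6 and 22.4 CPM, so the siPiwi 2 library alone was as high as siTj.

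corto, which encodes a chromatin protein that interacts with Polycomb and Trithorax group factors, had its peak (chr3R:5095905-5096404) 9083 bp upstream. It was at 16.8, 14.1 and 14.4 CPM in siGFP and at 113, 31.4 and 103 in siTj, again with no overlap (log2 fold change 2.39, SE 0.47; edgeR paired, adjusted p = 0.0232). Tollo encodes a receptor of the Toll family. It rose from 66.1, 72.2 and 54.6 CPM to 176, 122.8 and 89.5, with a peak (chr3L:15230737-15231236) 4632 bp upstream and another at its start (log2 fold change 0.96, SE 0.22; edgeR paired, adjusted p = 0.0357).

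CG2201 is uncertain, since its bounds differed between tables. It had 3.84, 9.04 and 2.57 CPM in siGFP and 26.6, 83.8 and 6.90 in siTj, and the groups overlapped because siTj 3 was below siGFP 2 (log2 fold change 2.47, SE 0.53; edgeR paired, adjusted p = 0.0319). It was at 47.3 CPM in siPiwi 2 and at 3.01 and 3.20 in siPiwi 1 and 3. The antisense share was high in siPiwi 2 and siTj 2, and its part in the levels of CG2201, h and CG8170 was not tested.

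When each siGFP or siTj library was left out of the paired fit in turn, CG7120, h and shot passed in 4 of 6 fits. pyr passed in 2, CG2201, CG32204, CG8170, bin and corto in 1 each, and Tollo in none, where its adjusted p by edgeR was 0.0729 to 0.211. The direction of the 10 genes held in all 6 fits.

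**Figure D4:**
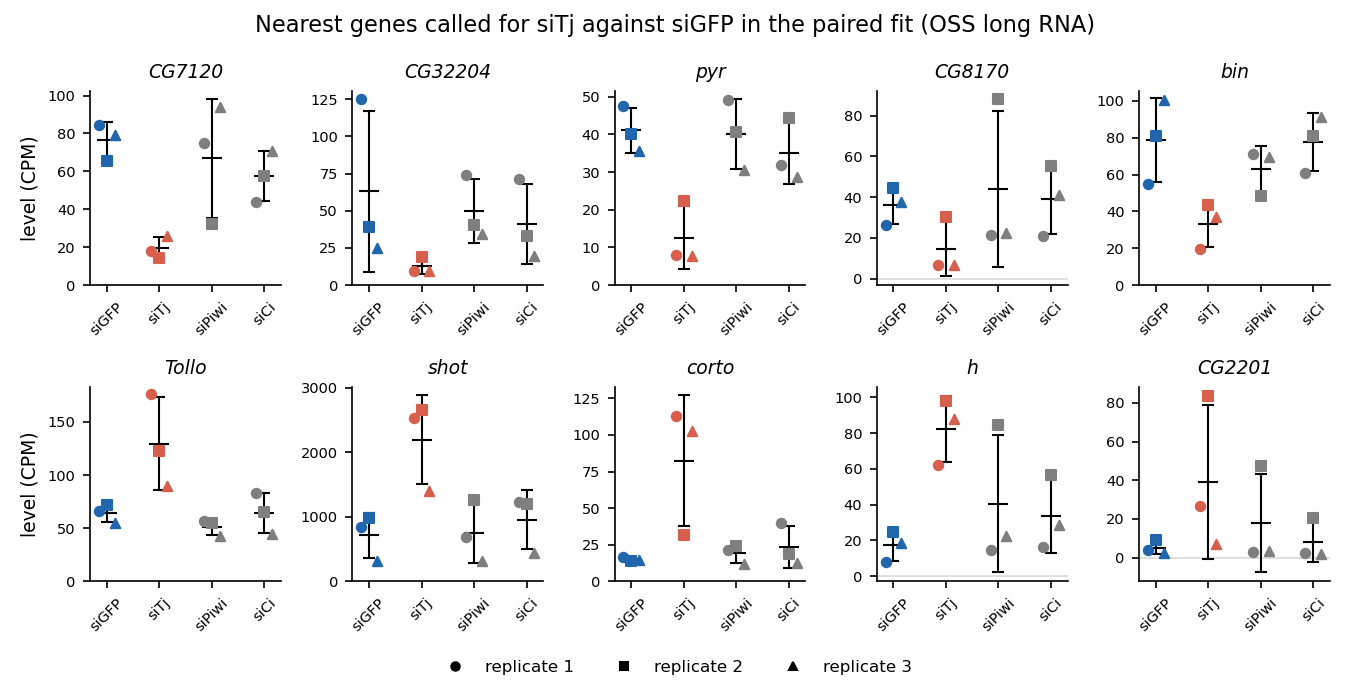
Levels in CPM of the 10 nearest genes called in the paired fit, by siRNA group, with 1 symbol per replicate number and bars for mean ± SD (n = 3). The siTj points lie apart from siGFP for 8 genes and overlap for CG8170 and CG2201, and the replicate 2 points of siTj and siPiwi are high for CG2201.

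For 4 of these genes the change was also called against siPiwi, where edgeR in the paired fit called 4 of the 120 nearest genes, 2 higher and 2 lower, against 0.681% of all genes tested (0.308% higher and 0.373% lower), and 0 in the fit without pairing (10 with an unadjusted p under 0.05). CG7120 was lower in siTj than in siPiwi (log2 fold change -1.74, SE 0.30; edgeR, adjusted p = 0.0305), as was pyr (-1.78, SE 0.35; edgeR, adjusted p = 0.0473). shot (1.69, SE 0.25; edgeR, adjusted p = 0.0161) and Tollo (1.3, SE 0.22; edgeR, adjusted p = 0.0240) were higher. Among the 93 tested nearest genes with no other TJ peak at their start or in their span, 0 were called against siPiwi in the paired fit. The comparisons with siGFP and with siPiwi share the siTj libraries. For siPiwi against siGFP edgeR called 0 of the 120 in both fits (1 with an unadjusted p under 0.05 without pairing and 4 with it), and for siCi against siGFP also 0 (2 and 10). DESeq2 without pairing called 0 in each. The background was 0% of all genes tested in these 2 comparisons. The siPiwi libraries lay wholly above siGFP for 1 of the 120 and wholly below for 1, against 1.84% of all genes tested (1.27% above and 0.569% below). For siCi this held for 2 above and 2 below, against 4.86% (2.02% above and 2.83% below).

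Taken as a list, the 120 nearest genes had a median log2 fold change of 0.44 for siTj against siGFP, against 0.08 for all genes tested, and 0.18 against 0.02 in the paired fit. That median rested on siTj 2. Without it the values were -0.24 for the nearest genes (-0.069 in the paired fit) and -0.13 for all genes, and 45 of the 120 had a positive log2 fold change in place of 77. The groups did not overlap for 20 of the 120 (16.7%), with siTj above in 11 and below in 9, and for 15% of all genes tested (8.5% above and 6.5% below).

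Of the 5 genes nearest to 3 peaks, apt, bbg and CG32365 were tested and not called, while CG14506 and CR45303 had too few reads to be tested. apt had 733, 430 and 383 CPM in siGFP and 354, 205 and 329 in siTj. All siTj values were below all siGFP values (paired log2 fold change -0.79, SE 0.27; edgeR, adjusted p = 0.131). bbg had 355, 311 and 99.5 CPM in siGFP and 262, 368 and 90.5 in siTj, and CG32365 had 3.22, 3.54 and 3.52 and 3.31, 14.4 and 8.57, and both overlapped between groups. CR45303 had 1 siGFP library with 0.0252 CPM and no read in the others or in siTj. Pdp1, which holds the 3 peaks near CG32365 by RefSeq, was at 134, 85.7 and 162 CPM in siGFP and 66.7, 50.02 and 101 in siTj (paired log2 fold change -0.81, SE 0.23; edgeR, adjusted p = 0.0771); it was picked after its position was seen. Among the 26 tested protein-coding RefSeq genes that held a peak, 2 were called in the paired fit (against 3.52% of all genes tested), CG7120 lower and shot higher. Without pairing edgeR called 0 of the 26, of which 4 had p below 0.05 before adjustment, as 7.35% of all genes tested did. By DESeq2 the count was 1, or 7 with the block. Of all 10724 genes tested DESeq2 called 210, or 1252 with the block.

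Nearest genes made up 1.52% of all genes in the tables. None of the 18 listed somatic piRNA genes found in the tables (of 20 listed) was, and at that share a list of 18 is too short to show a lack. Of the 18, 7 passed the paired test as lower in siTj (flam, piwi, armi, fs(1)Yb, shu, mael and nxf2) and 0 as higher, against 1.45% and 2.06% of all genes tested. Both flam and piwi had a TJ peak within 1 kb of their own start. Of 58 follicle cell regulators 4 (6.90%) were nearest genes: shg (E-cadherin), CadN (N-cadherin), chinmo and Eip93F (an ecdysone response factor). Over that list 5 were higher (ct, wg, dpp, upd3 and inv) and 6 lower (tj, Wnt2, Egfr, bond, dec-1 and spo), against 2.06% and 1.45% of all genes tested, and none of these 11 was nearest to a peak between genes. The list of small Maf and partners held 3 genes, maf-S, cnc and Keap1. Of these cnc, the homologue of the stress factor Nrf2, was a nearest gene, and Keap1 was higher. Without pairing, edgeR called 1, 1 and 0 genes of the 3 lists. The medians of the paired log2 fold change were -0.62, 0.33 and 0.04 for the 3 lists.

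The 5 nearest genes on these lists had the peaks closest to CadN at 1282 bp upstream (chr2L:17779372-17779871), to chinmo at 1668 bp, to cnc at 4782 bp, to Eip93F at 9973 and 11881 bp and to shg at 11177 bp downstream. shg had 510, 634 and 295 CPM in siGFP and 290, 405 and 302 in siTj. chinmo had 2536, 1023 and 749 CPM in siGFP and 2208, 717 and 1242 in siTj. In both the groups overlapped, and the same held for CadN, cnc and Eip93F, whose bounds differed between tables. None passed the paired test, with adjusted p by edgeR of 0.432 for shg, 0.953 for chinmo, 0.279 for CadN, 0.934 for cnc and 0.190 for Eip93F.

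Histone marks were rare near TJ peaks between genes. An H3K4me3 summit lay within 1 kb of the peak centre for 12 of 280 peaks (4.29%, 95% exact binomial interval 2.23 to 7.37%) in Plain 1, 9 (3.21%) in Plain 2, 8 (2.86%) in siGFP and 4 (1.43%) in siTj. The share was 61.3%, 55.4%, 55.9% and 32.1% for TJ peaks at gene starts, 6.19%, 3.09%, 4.12% and 0.916% for those in gene bodies, and 1.28%, 1.31%, 1.23% and 0.956% of all bases between genes. So these peaks were marked at about the share of peaks in gene bodies and far below those at gene starts, an order that the classes partly fix. For the 231 peaks outside RefSeq genes the share was lower, at a mean of 1.73% over the Plain libraries and 1.299% in siGFP, close to that of all bases between genes. The siTj list held 3134 summits and the others 5949 to 6384, with 1 siTj and 1 siGFP library, so no change after siTj can be read from the shares. Intervals cover counting error only.

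For H3K9me3 the shares were 8.93% (25 peaks, interval 5.86 to 12.9%) in Plain 1, 5.36% (15) in Plain 2, 5.36% (15) in siGFP and 0.714% (2) in siTj. Of all bases between genes, 25.7%, 21.1%, 25.4% and 17.9% lay as close to a summit, so the peaks were near this mark less often than the territory they were drawn from, in each library. On the arms with the lowest share of such bases in Plain 1, 3R (15.4%) and 2L (16.2%), 1 of 60 and 7 of 55 peaks had a summit. On 2R (39.0%) and 3L (30.5%) 5 of 48 and 11 of 84 peaks had one. These bases were not split by nearness to the centromere. The shares therefore do not show whether peaks lie away from the mark within the rest of an arm. The difference was not tested. The lists held 16420, 11124, 16939 and 8829 summits.

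**Figure D5:**
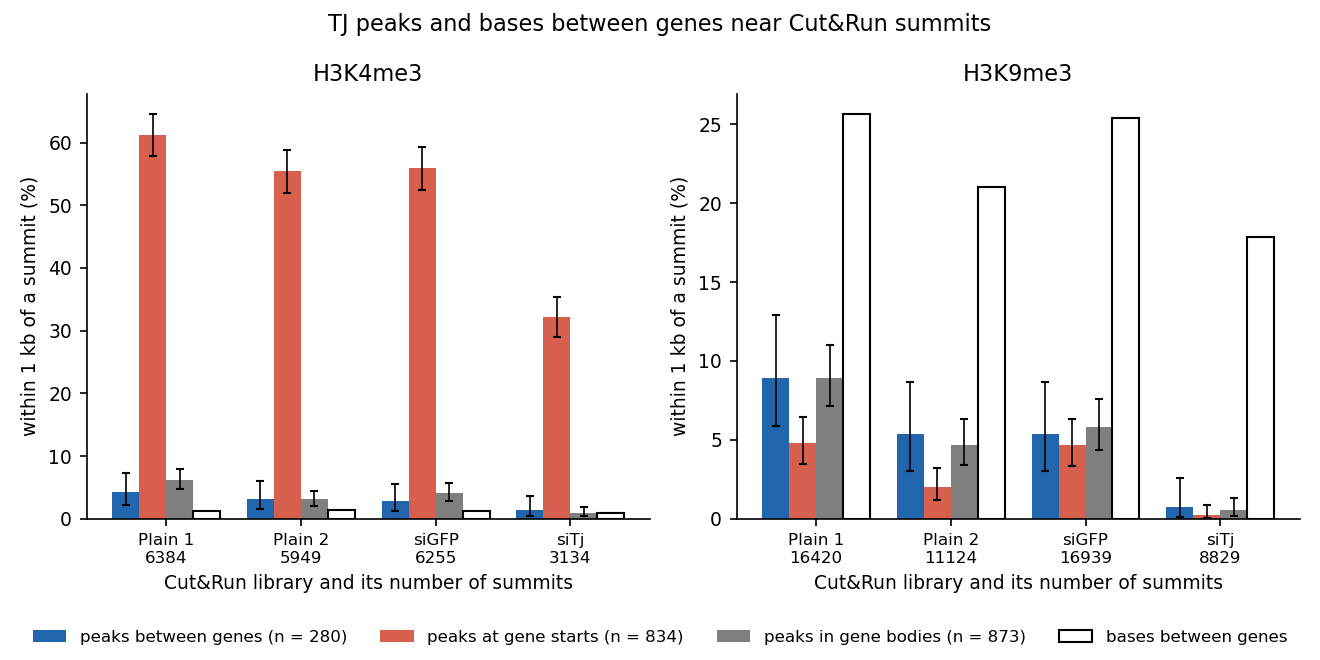
Share of TJ peaks of each class, and of all bases between genes, within 1 kb of a Cut&Run summit in each library, for H3K4me3 (left) and H3K9me3 (right), in percent. Bars of peaks carry 95% exact binomial intervals, and the number of summits in each list is under the library name. Peaks between genes reach at most 4.29% for H3K4me3 and 8.93% for H3K9me3.

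In all, 243 of the 280 peaks (86.8%) had neither mark within 1 kb in any library. No H3K4me3 summit was near 268 of them in any of 4 libraries, and no H3K9me3 summit near 251. An H3K4me3 summit in Plain 1, Plain 2 and siGFP together was found at 8 peaks, 4 of which had it in siTj too. They included chr2R:6749314-6749813 upstream of Eb1 (a microtubule end protein), chr2R:15930948-15931447 upstream of bdg and chr3R:20574410-20574909 near TFAM, all of which overlap a RefSeq gene, and chr2R:14147245-14147744, 5213 bp from the start of Rcd1, which does not. The peak on chromosome Y, at chrY:92-591, was another, and it is uncertain for the reason given above. An H3K9me3 summit in the same 3 libraries was found at 10 peaks, and none of these overlapped a RefSeq gene. They included the pair at chr2L:5881517-5882016 and chr2L:5889668-5890167 near CG44574 and CR44578, chr2L:14502930-14503429 of the CR45303 cluster and chr3L:20324729-20325228 near Spn77Bb. In siTj 2 of the 10 had a summit.

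The pair of peaks farthest from a gene start, on 2R, differed from the rest. Both had an H3K4me3 and an H3K9me3 summit within 1 kb in all 4 libraries of each mark. The summit next to the pair had the highest score of its list, the authors' value, read as a −log10 q from the layout of the lists, in 7 of the 8 lists. The scores there were 2535, 1311 and 633 for H3K4me3 in Plain 1, Plain 2 and siTj, and 3102, 3124, 464 and 1649 for H3K9me3 in Plain 1, Plain 2, siGFP and siTj. In the H3K4me3 list of siGFP it was the second, with a score of 935 against 1082. These 2 peaks were the 2 with H3K9me3 in siTj. Without them the counts were 10, 7, 6 and 2 of 278 for H3K4me3 and 23, 13, 13 and 0 for H3K9me3 in Plain 1, Plain 2, siGFP and siTj. Why both marks and TJ peaks meet there was not tested.

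Of the 10 peaks next to the called nearest genes, 0 had an H3K4me3 summit within 1 kb in any library. For H3K9me3 1 peak, that of CG7120, had a summit in 1 library. Of all 280 peaks, 268 had no H3K4me3 summit and 251 no H3K9me3 summit in any library. At such shares 10 peaks are too few to show whether the called genes differ.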

How the data were processed

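TJ peaks came as 1 deposited list of positions for 3 ChIP libraries, with no height; the list is named as the output of IDR (a filter on peaks that recur between replicates), and its settings were not given in the sources used here. Cut&Run lists have no header, and the score the authors deposited for each summit was read as a −log10 q from the MACS2 summit layout and the smallest values. Long RNA tables held the authors' whole-number counts of reads per gene, of which unique sense reads over the locus were used. Per the submitters' processing notes, Bowtie2, MACS2, DESeq2 and FastQC were used, with no role given. Gene positions matched RefSeq Release 6 in start and end for 93.5% of the 12346 genes matched by symbol (16369 in the tables), so positions are taken as that build. Where the 24 tables disagreed (867 genes), the widest bounds were used. 0 value columns belonged to samples outside the series.

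Counts of the 12 OSS libraries were fitted with edgeR 4.0.16 in R 4.3.3 (filterByExpr, TMM, quasi-likelihood F test, Benjamini-Hochberg, threshold 0.05), without and with the replicate number as a block. CPM are counts scaled to TMM library size. DESeq2 1.42.0 was an alternative. Same-numbered libraries deviated together in all 18 pairs (r 0.248 to 0.900, all above 0.1), so numbers were taken to pair the samples, as a hint from the data. With the block, the biological coefficient of variation was 0.455 in place of 0.760. On simulated counts for siTj against siGFP (10540 genes, 50 changed per fold), changes of 2, 4, 8 and 16 times were found at rates of 0%, 0%, 24% and 74% by the fit without block (0 false calls) and 6%, 42%, 98% and 100% by the paired fit (3 false calls). The simulation gave same-numbered libraries a shared effect, so the gain of the paired fit was built in. It used the same biological variation for every gene and changed no gene with low counts, so the rates do not cover weakly expressed genes.

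Named genes were tj, nearest genes called in either fit, genes nearest to 3 or more peaks, and nearest genes on the fixed lists. Peaks of clusters, the farthest peaks and those next to the limit were also named. Peaks with summits in 3 libraries, RefSeq overlaps, Pdp1 and the 2R pair were named after their values were seen. The members and lists were chosen with earlier results of these data known. Sequences and motifs were not analysed here.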

Additional observations from a re-analysis of the deposited data

How the results depend on the processing

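The number of peaks between genes was 322, 211 and 129 with a limit of 500 bp, 2 kb and 5 kb from a gene start, 316 by peak centre, 287 with the gene bounds of siGFP 1 or of most tables, and 231 outside RefSeq genes too, a choice made after seeing the data. Peaks in clusters numbered 71 and 162 with gaps of 5 and 20 kb, and 63 when only peaks between genes could join.

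For siTj against siGFP, nearest genes called numbered 0 in edgeR, 10 with the replicate block, 10 with the block and reads at all positions, 3 in DESeq2 and 16 in DESeq2 with the block. Leaving out siPiwi 2 and siTj 2 gave 1, and 16 with the block. Leaving out 1 library gave 0, and 0 to 11 with the block. With the block, and chosen after seeing the data, other neighbours gave 12 (nearest span edge), 19 (both flanking genes), 15 (nearest tested gene), 6 and 8 (within 5 and 10 kb) and 8 (peaks outside RefSeq genes). For siTj against siPiwi the block gave 4 in place of 0. Over all genes 5 were called, and 377 with the block, 210 in DESeq2, 1252 in DESeq2 with the block, 1 with RLE size factors, 9 without a filter, 1 and 334 with reads at all positions (without and with the block), 1 with siGFP and siTj alone, and 22 and 772 without siPiwi 2 and siTj 2 (without and with the block). Leaving out 1 library gave 0 to 2, and with the block 1 (siGFP 1), 55 (siGFP 2), 118 (siGFP 3), 15 (siTj 1), 367 (siTj 2) and 60 (siTj 3).

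The median log2 fold change of nearest genes (0.44) reversed to -0.24 without siTj 2 and without siPiwi 2 and siTj 2, and with the block to -0.069 and -0.075. Leaving out 1 library gave -0.24 to 0.48, and -0.069 to 0.39 with the block. The cause was not tested.

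The mean H3K4me3 share in Plain (3.75%) was 12.7% within 5 kb of a summit and 1.07% with summits scoring above their list's median, and for peaks outside RefSeq genes 1.73% (1.299% in siGFP and 0.866% in siTj); within 5 kb it was 9.29% in siGFP and 5.71% in siTj. For H3K9me3 the Plain share (7.14%) was 3.39%, 12.9% and 20.9% within 500 bp, 2 kb and 5 kb and 2.68% with summits above the median score; siGFP gave 2.86%, 12.1% and 21.8%, and siTj 7.86% within 5 kb. Leaving out 1 Plain library gave 3.21% to 4.29% for H3K4me3 and 5.36% to 8.93% for H3K9me3.

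Peaks had positions only, so weak and strong binding could not be told apart, and summit lists of different length limit comparison between libraries. The motif searches planned were not run, with no genome used here.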
